A study of Homo sapiens with 21 samples.

Results

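The 7 circular RNAs (circRNAs) described here are hsa_circ_1242, hsa_circ_18450, hsa_circ_9962, hsa_circ_19001, hsa_circ_17707, hsa_circ_11521 and hsa_circ_12224, out of 124082 in the table. They were chosen by their read counts, which were lower in osimertinib-resistant NCI-H1975 cells than in other NCI-H1975 cells. That difference is therefore given as a description, without a test. All 7 were among the 9175 circRNAs that passed the filter on low counts.

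A circRNA is made when the splicing machinery joins the end of an exon to the start of the same or an upstream exon, which closes the transcript into a ring. The ring has no free ends, so exonucleases that degrade linear RNA do not attack it, and many circRNAs are long-lived in the cytoplasm. Sequencing recognises a circRNA by reads that cross the back-splice junction. Osimertinib and gefitinib block the tyrosine kinase of EGFR, the receptor that drives growth in EGFR-mutant lung cancer cells, and cells that outgrow such a drug can keep growing through other routes.

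The 21 libraries came from 3 human lung cell lines in 7 groups of 3. NCI-H1975 and PC-9 are EGFR-mutant lung cancer lines, and NL20 is an immortalised, nontumorigenic bronchial epithelial line used as the normal control. The NCI-H1975 groups were osimertinib-resistant cells kept in 1 µM osimertinib (OR), cells transfected with FASN, the gene of fatty acid synthase, cells transfected with the plasmid pCMV6, and cells with no resistance or plasmid code, called NCI-H1975 below. Both transfected groups received 50 µg/ml of the selection agent G418. The PC-9 groups were gefitinib-resistant cells kept in 1 µM gefitinib (GR) and PC-9 cells with no resistance code. All cells grew in serum-supplemented RPMI. Since the drug was present only in the resistant groups, resistance and exposure to the drug cannot be told apart. The labels do not say whether a resistant or transfected line is 1 clone, nor whether the libraries of a group are from separate cultures, so the spread between them may be technical.

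Libraries held between 95808 and 203079 reads. OR replicate 2 stood apart from its group, with 15244 distinct circRNAs against 23973 and 21841 in OR replicates 1 and 3, so OR values are also given without it. Its total of 110456 reads was the same as that of pCMV6 replicate 1, but the counts of these libraries differed for 26167 circRNAs. The identifiers are numbers of this table, and the table gives no host gene, gene name, coordinate or sequence for them. For that reason no host gene, function or sequence is stated for a circRNA, cell line markers were not looked up, and FASN itself was not checked. Levels are in CPM, the counts scaled to a common depth over the circRNAs that passed the filter (edgeR, TMM). How well each junction is captured is unknown, so levels are compared between groups and not between circRNAs.

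The 7 circRNAs made up 0.234% ± 0.0124 of all reads in OR cells, 0.610% ± 0.0325 with FASN, 0.539% ± 0.0450 with pCMV6 and 0.630% ± 0.0155 in NCI-H1975 cells (mean ± SD, n = 3 each). In GR cells they made up 0.304% ± 0.0181, in PC-9 cells 0.333% ± 0.0125 and in NL20 cells 0.261% ± 0.0095. By reads at the junction in NCI-H1975 cells, they ranged from rank 11 of 9175 (hsa_circ_12224) to rank 3803 (hsa_circ_9962). All 7 had a read in the NCI-H1975, FASN and pCMV6 groups, 6 in both PC-9 groups, 5 in NL20 and 4 in OR cells.

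**Figure D1:**
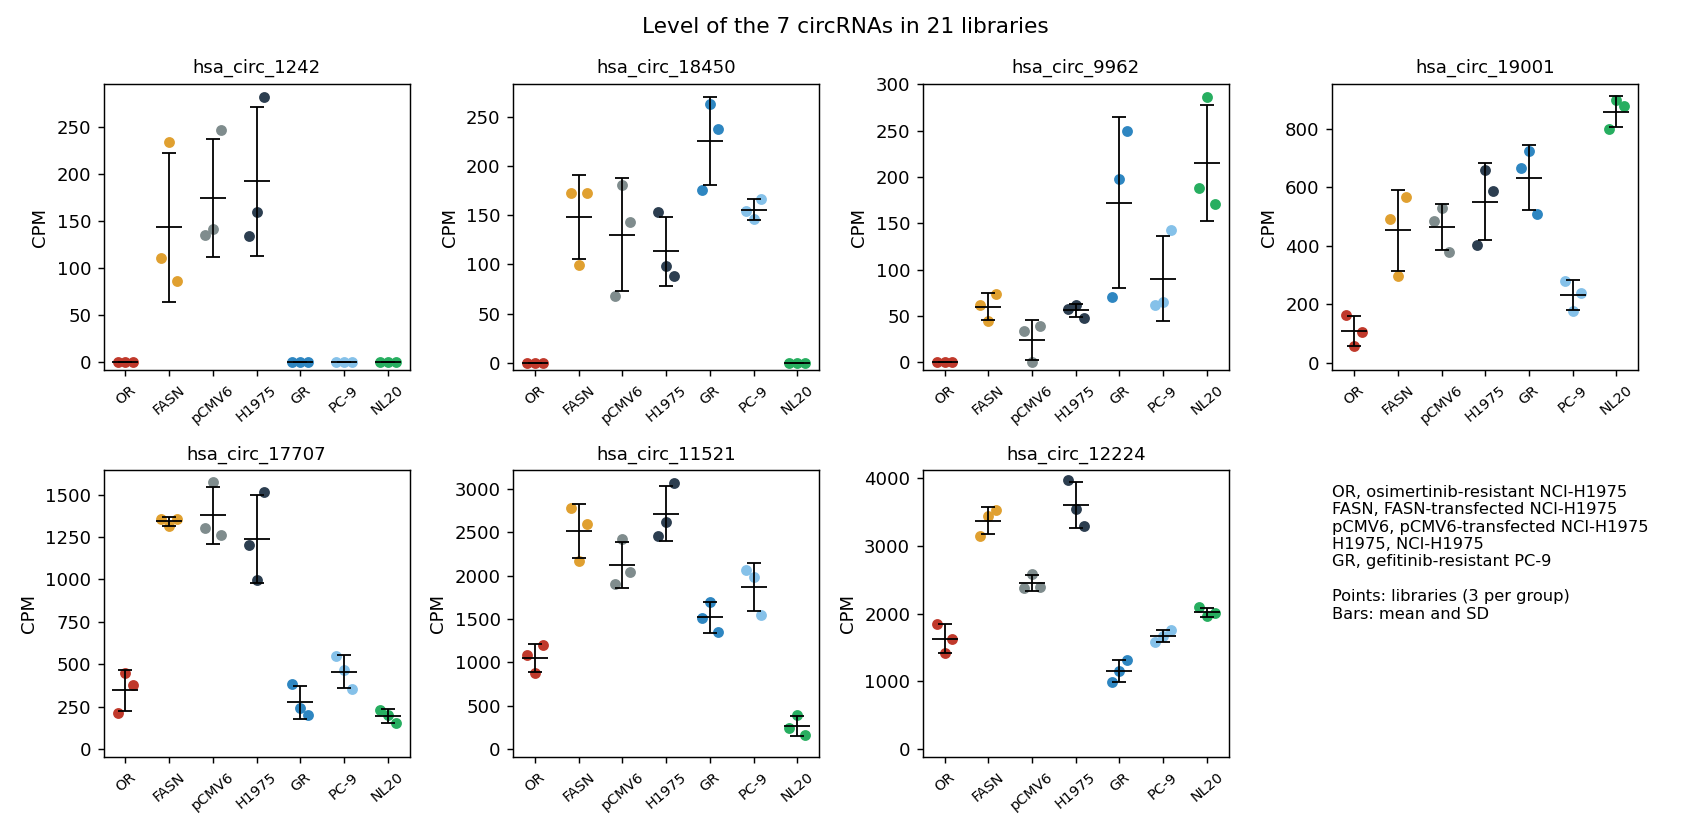
Level in CPM (linear vertical axes, one panel per circRNA) of the 7 circRNAs in the 21 libraries, with groups along the horizontal axis, points for libraries and bars for the mean and SD of 3 libraries. OR libraries are at 0 for 3 circRNAs and below every NCI-H1975 library for all 7, while the other cell lines range from 0 for hsa_circ_1242 to the highest level of all groups for hsa_circ_9962 and hsa_circ_19001 in NL20.

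Of the 7, hsa_circ_1242, hsa_circ_18450 and hsa_circ_9962 had no read in any OR library. hsa_circ_1242 had 0, 0 and 0 reads in OR replicates 1 to 3, against 9, 26 and 7 in FASN libraries, 12, 11 and 19 in pCMV6 libraries and 14, 18 and 35 in NCI-H1975 libraries. It was also without a read in all 9 PC-9, GR and NL20 libraries, so that within this table it was read in the 9 NCI-H1975 libraries that are not osimertinib-resistant and nowhere else. At the rate of NCI-H1975 cells, the depth of the OR libraries corresponds to 57.3 reads. With a floor of 3 reads over the OR group, hsa_circ_1242 was at least 19.1-fold lower in OR than in NCI-H1975 cells, and at least 13.4-fold lower without OR replicate 2. The same floor makes it at least 14.9-fold lower than in FASN cells and at least 16.8-fold lower than in pCMV6 cells. Such floors allow for counting error only in the group without a read. They take the reads of the other group as exact and use no spread between libraries, so the true bounds are looser. PCR copies of 1 molecule can be read more than once, which the floors do not allow for either.

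hsa_circ_18450 had no read in OR cells and none in NL20 cells but was present in every library of the other 5 groups. FASN libraries had 14, 11 and 14 reads, pCMV6 libraries 6, 14 and 11, and NCI-H1975 libraries 16, 11 and 11. Its levels there averaged 148.1 ± 42.5, 130.5 ± 57.3 and 113.5 ± 35.1 CPM (SD, n = 3 each), and the ranges of these 3 groups overlapped. OR cells were at least 13.8-fold lower than FASN cells, at least 12.4-fold lower than pCMV6 cells and at least 10.8-fold lower than NCI-H1975 cells, or at least 7.60-fold lower than NCI-H1975 cells without OR replicate 2. Unlike hsa_circ_1242, it was also read in every library of both PC-9 groups: its mean was 225.5 ± 45.0 CPM in GR libraries, and PC-9 libraries averaged 155.8 ± 10.4 CPM.

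hsa_circ_9962 had the fewest reads of the 7 in NCI-H1975 cells and was the one for which OR cells were hardest to set apart. It had 0, 0 and 0 reads in OR cells, against 5, 5 and 6 in FASN libraries, 3, 0 and 3 in pCMV6 libraries and 6, 7 and 6 in NCI-H1975 libraries. pCMV6 replicate 2 had no read either, so the OR and pCMV6 groups overlapped. OR cells were at least 5.68-fold lower than FASN cells, at least 2.40-fold lower than pCMV6 cells and at least 5.42-fold lower than NCI-H1975 cells (at least 3.80-fold without OR replicate 2). At the pCMV6 rate the depth of the OR libraries corresponds to 7.19 reads. That rate rests on 6 pCMV6 reads, whose own counting error the bound of 2.40 leaves out. The circRNA was highest in NL20, at 215.0 ± 62.3 CPM with 25, 41 and 20 reads, against which OR cells were at least 21.2-fold lower.

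The other 4 circRNAs were still read in every OR library, at reduced levels. hsa_circ_19001 had 161.4, 57.4 and 104.8 CPM in OR replicates 1 to 3, against 403.3, 659.6 and 588.8 CPM in NCI-H1975 cells. All OR libraries lay below all 18 other libraries, PC-9 included. This was so for 1 of the 7 circRNAs, hsa_circ_19001, and for 0.316% of all circRNAs that passed the filter. Part of this relation, the low level against other NCI-H1975 cells, is what the 7 were chosen by. Of all circRNAs, 210 had every OR library below the 9 other NCI-H1975 libraries, and 29 had every OR library below all 18. Nothing is therefore read from the 0.316%. Summed over libraries, hsa_circ_19001 was 5.05-fold lower in OR than in NCI-H1975 cells, 4.23-fold lower than in pCMV6 cells and 3.96-fold lower than in FASN cells. Without OR replicate 2, its lowest library, it was 4.20-fold lower than in NCI-H1975 cells.

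hsa_circ_17707 had 211.8, 447.7 and 381.2 CPM in OR libraries, against 1357, 1314 and 1356 CPM in FASN libraries, 1301, 1572 and 1262 CPM in pCMV6 libraries and 1200, 998.3 and 1516 CPM in NCI-H1975 cells. The 3 other NCI-H1975 groups overlapped with each other and all their libraries lay above every OR library. It was 3.90-fold lower in OR than in FASN cells, 4.00-fold lower than in pCMV6 cells and 3.64-fold lower than in NCI-H1975 cells by summed reads. Without OR replicate 2, its highest OR library, that ratio was 4.18. The OR level, 346.9 ± 122 CPM, overlapped with those of PC-9 and GR cells, at 456.9 ± 95.3 and 277.1 ± 96.4 CPM.

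The 2 circRNAs with the most reads had the smallest ratios. hsa_circ_11521 had 1079, 872.5 and 1201 CPM in OR libraries, against 2458, 2612 and 3065 CPM in NCI-H1975 cells, and was 2.57-fold lower. hsa_circ_12224 had 1846, 1412 and 1630 CPM in OR libraries, against 3966, 3548 and 3299 CPM in NCI-H1975 cells, and was 2.19-fold lower. Without OR replicate 2 the ratios were 2.39 and 2.07. Against pCMV6 cells these circRNAs were 1.99-fold lower and 1.50-fold lower. The size of the hsa_circ_12224 difference thus depended on the group it was set against, since pCMV6 cells, at 2453 ± 119 CPM, lay below every FASN and NCI-H1975 library.

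Over the 7 circRNAs, every OR library lay below every library of NCI-H1975 in 7, of FASN in 7 and of pCMV6 in 6. These relations held for 10.3%, 9.4% and 7.98% of all circRNAs that passed the filter. OR libraries lay below all 9 other NCI-H1975 libraries for 6 of the 7 and for 2.29% of all. edgeR's quasi-likelihood test called 106 circRNAs lower in OR than in NCI-H1975 cells, which is 1.16% of those tested, and 16 of these had no read in OR cells. The 7 circRNAs are all among the 106, and since they were taken from this comparison nothing is read from these counts. The OR libraries are the same in all 3 settings, so the differences from FASN and pCMV6 cells do not repeat the measurement of the OR level.

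**Figure D2:**
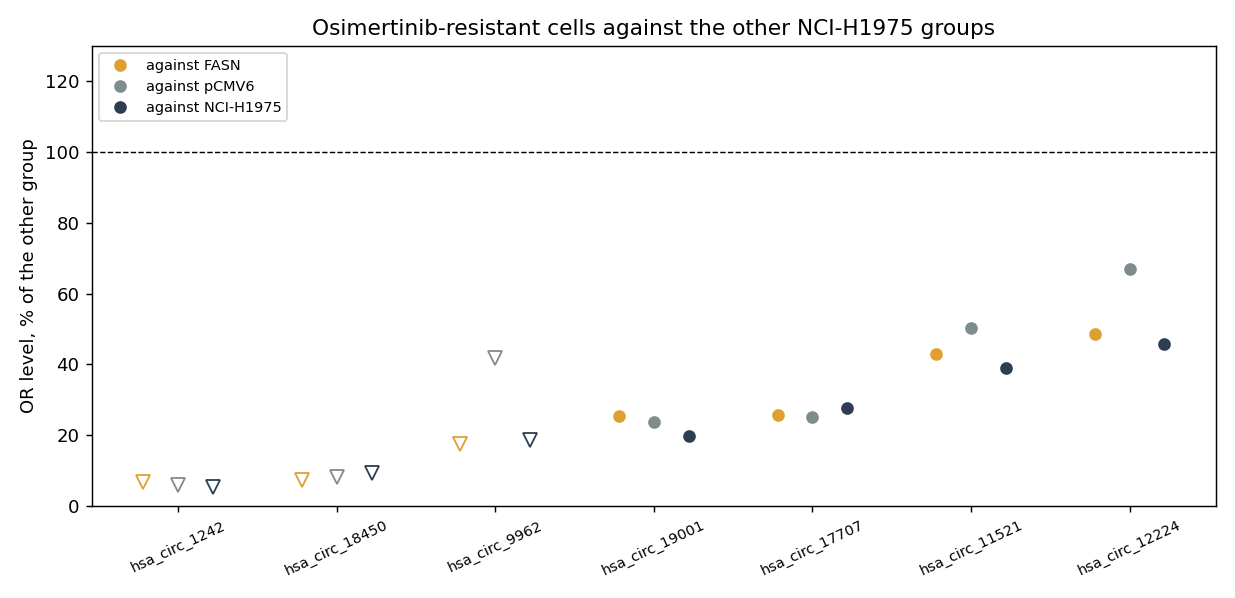
Level in OR cells as a percentage of that in FASN, pCMV6 and NCI-H1975 cells (vertical axis; the dashed line marks equal levels) for each of the 7 circRNAs. Circles are ratios of summed reads, with no error bar since the circRNAs were chosen by this difference, and open triangles are upper bounds for circRNAs without a read in OR cells. hsa_circ_12224 against pCMV6 cells is closest to the line, 1.50-fold lower, and hsa_circ_1242 against NCI-H1975 cells is farthest from it, at least 19.1-fold lower.

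Transfected NCI-H1975 cells show how these circRNAs behaved in the same line without osimertinib. FASN cells were compared with pCMV6 cells, the plasmid control, in a contrast of these 2 groups. The OR and NCI-H1975 libraries enter it through the shared spread, scaling and filter; fitted alone, the 6 FASN and pCMV6 libraries gave 32 calls. None of the 7 was called by edgeR's quasi-likelihood test, and 1 of them, hsa_circ_12224, had an unadjusted p under 0.05. Of all 9175 tested, 29 were called (0.316%) and 729 had an unadjusted p under 0.05. DESeq2 called 34 and none of the 7. FASN and pCMV6 cells are among the other NCI-H1975 cells that OR cells were set against, so they may have entered the choice of the 7. Nothing is therefore read from the lack of calls. hsa_circ_12224 came closest, with 3145, 3439 and 3526 CPM in FASN cells, against 2375, 2590 and 2394 CPM in pCMV6 cells. FASN libraries were all above pCMV6 libraries, which also held for hsa_circ_9962, and for 6.43% of all circRNAs. The log2 change of hsa_circ_12224 was 0.46 ± 0.17 (SE; edgeR adjusted p = 0.399, DESeq2 Wald test adjusted p = 0.0601). Those of hsa_circ_19001 and hsa_circ_17707, -0.05 ± 0.30 and -0.04 ± 0.23, lay within 1 SE of 0, and hsa_circ_9962, with 16 against 6 reads, had the widest error, at 1.23 ± 0.86.

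NCI-H1975 cells helped to define the list, and FASN and pCMV6 cells may have done so. These groups are therefore set beside each other only as values. FASN and NCI-H1975 libraries overlapped for all 7 circRNAs, while of all circRNAs 5.53% had every FASN library below and 4.19% every FASN library above the NCI-H1975 libraries. pCMV6 libraries lay below every NCI-H1975 library for 3 of the 7, hsa_circ_9962, hsa_circ_11521 and hsa_circ_12224, and for 7.84% of all circRNAs. hsa_circ_12224 averaged 2453 ± 119 CPM in pCMV6 and 3604 ± 337 CPM in NCI-H1975 cells (SD, n = 3), hsa_circ_11521 averaged 2122 ± 270 and 2712 ± 315 CPM, and hsa_circ_9962 averaged 24.3 ± 21.2 and 56.1 ± 7.12 CPM.

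Resistance to gefitinib in PC-9 cells gave a comparison of 6 of the 7 circRNAs in groups that were not used to choose them, since hsa_circ_1242 had no read in either group. hsa_circ_19001 rose and the other 5 did not pass the test. hsa_circ_19001 had 667.3, 723.3 and 509.8 CPM in GR cells, against 278.6, 175.0 and 238.0 CPM in PC-9 cells. Every GR library was above every PC-9 library, by a factor of 2.78 in the fitted means (log2 change 1.47 ± 0.30 SE; edgeR quasi-likelihood test, adjusted p = 0.000522). edgeR called 124 circRNAs in this comparison (1.35% of those tested), 67 of them higher (0.73%). The call of hsa_circ_19001 was lost without PC-9 replicate 2 (edgeR adjusted p = 0.0522) and without the filter on low counts (adjusted p = 0.142), with log2 changes of 1.29 and 1.44.

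Of the circRNAs not called, hsa_circ_18450 and hsa_circ_9962 had higher means in GR than in PC-9 cells, and hsa_circ_17707, hsa_circ_11521 and hsa_circ_12224 lower ones. hsa_circ_18450 had 15, 24 and 21 reads in GR cells, against 15, 20 and 14 in PC-9 cells. Scaled to depth, its GR libraries lay above its PC-9 libraries, between 175.6 and 263.0 CPM against 145.8 to 166.6 CPM, but the log2 change of 0.54 ± 0.56 (SE) was smaller than its error (edgeR adjusted p = 0.827). GR libraries lay above PC-9 libraries for 7.64% of all circRNAs. hsa_circ_9962 had 6, 18 and 22 reads in GR cells, against 6, 9 and 12 in PC-9 cells, and the groups overlapped.

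hsa_circ_12224 was the circRNA whose GR libraries were all below its PC-9 libraries, a relation found for 9.22% of all circRNAs. It had 995.2, 1151 and 1314 CPM in GR cells, against 1579, 1670 and 1761 CPM in PC-9 cells. The log2 change was -0.53 ± 0.18 (SE), with an adjusted p of 0.118 in edgeR's quasi-likelihood test. The call depended on the tool and the filter: DESeq2 gave an adjusted p of 0.00754, and edgeR one of 0.0259 when the minimum count was raised to 10. hsa_circ_17707 had 386.4, 241.1 and 203.9 CPM in GR cells, against 546.9, 466.7 and 357.1 CPM in PC-9 cells (log2 change -0.73 ± 0.27 SE, edgeR adjusted p = 0.205). For hsa_circ_11521 the log2 change was -0.30 ± 0.18 (SE, edgeR adjusted p = 0.587), with overlapping groups.

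**Figure D3:**
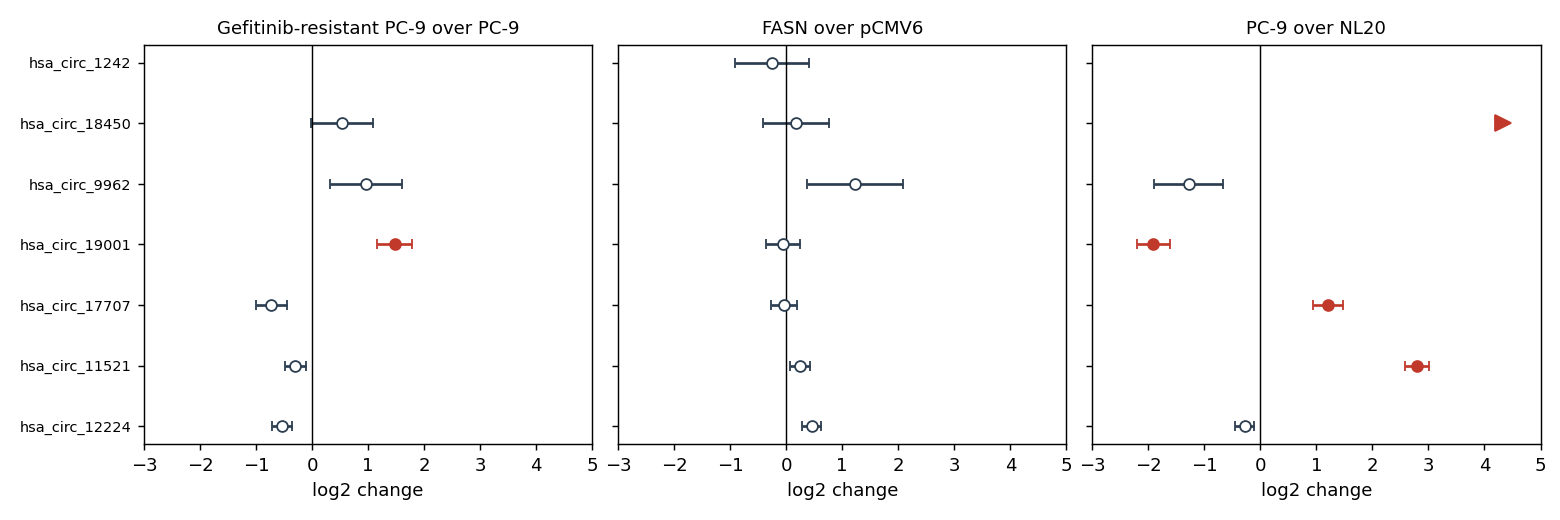
Log2 change (horizontal axis) of the 7 circRNAs in GR over PC-9, FASN over pCMV6 and PC-9 over NL20 cells, with bars of 1 SE, filled red symbols for an edgeR adjusted p under 0.05, and a triangle for a lower bound where NL20 had no read. Positions left empty had no read in either group. hsa_circ_19001 is called higher in GR cells, none of the 7 is called between FASN and pCMV6 cells, and 4 are called between PC-9 and NL20 cells.

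PC-9 and NL20 cells differed for 4 of the 6 circRNAs read in either. edgeR's quasi-likelihood test called 1539 circRNAs between these lines (16.8% of those tested), 828 higher (9.02%) and 711 lower (7.75%) in PC-9. hsa_circ_11521 was higher in PC-9, with 2064, 1983 and 1547 CPM against 241.2, 391.0 and 161.9 CPM in NL20 (log2 change 2.80 ± 0.21 SE, edgeR adjusted p = 5.20e-39). hsa_circ_17707 was also higher, at 456.9 ± 95.3 CPM in PC-9 libraries and 196.5 ± 40.5 CPM in NL20 (SD, n = 3; log2 change 1.21 ± 0.27 SE, edgeR adjusted p = 0.000157), though edgeR gave an adjusted p of 0.0597 when low counts were kept. hsa_circ_18450 was read 49 times in PC-9 and not in NL20, at least 20.2-fold higher (edgeR adjusted p = 1.43e-08).

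hsa_circ_19001 went the other way, with 230.6 ± 52.2 CPM in PC-9 libraries and 859.1 ± 53.3 CPM in NL20 cells (SD, n = 3), where it had 799.0, 900.6 and 877.6 CPM. It was 3.76-fold lower in PC-9 (log2 change -1.91 ± 0.30 SE, edgeR adjusted p = 6.48e-09). hsa_circ_9962 and hsa_circ_12224 were not called. hsa_circ_9962 had 61.9, 65.6 and 142.8 CPM in PC-9, against 188.4, 286.2 and 170.4 CPM in NL20. Its log2 change was -1.28 ± 0.62 (SE), with an edgeR adjusted p of 0.142, and of 0.0416 when the 6 libraries were fitted alone. hsa_circ_12224 had a log2 change of -0.28 ± 0.17 (SE, edgeR adjusted p = 0.283). This comparison and that of GR with PC-9 cells share the PC-9 libraries.

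The 7 circRNAs did not share 1 pattern over the 7 groups. For hsa_circ_1242, hsa_circ_11521 and hsa_circ_12224 the group with the highest mean was NCI-H1975, for hsa_circ_17707 pCMV6, for hsa_circ_18450 GR, and for hsa_circ_9962 and hsa_circ_19001 NL20. Neighbours in these orders often overlapped: the ranges of NCI-H1975, pCMV6 and FASN cells ran into each other for hsa_circ_1242, hsa_circ_18450, hsa_circ_19001 and hsa_circ_17707. OR cells came last for hsa_circ_9962 and hsa_circ_19001, level at 0 with other groups for hsa_circ_1242 and hsa_circ_18450, and above NL20 by mean for hsa_circ_17707, with overlapping libraries, and for hsa_circ_11521, without overlap. For hsa_circ_12224, OR cells at 1629 ± 217 CPM stood beside PC-9 cells at 1670 ± 91.3 CPM, with overlapping libraries, and above GR cells at 1153 ± 159 CPM.

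Over the 21 libraries, the Pearson correlation of log2 CPM between the circRNAs of the list had a median of 0.24 over 21 combinations, from -0.41 for hsa_circ_9962 with hsa_circ_17707 to 0.91 for hsa_circ_1242 with hsa_circ_17707. These values describe 21 points from 7 groups and 3 cell lines, so differences between lines enter them. They were negative for 5 combinations, 4 of which held hsa_circ_9962. Among the 9168 other circRNAs that passed the filter, the one most like hsa_circ_1242 was hsa_circ_11721 (r = 0.95). For hsa_circ_11521 it was hsa_circ_11835 (r = 0.93), for hsa_circ_17707 hsa_circ_18620 (r = 0.92) and for hsa_circ_12224 hsa_circ_5158 (r = 0.91). For hsa_circ_18450, hsa_circ_9962 and hsa_circ_19001 no circRNA reached 0.9, and the closest were hsa_circ_16299, hsa_circ_6321 and hsa_circ_5588 (r = 0.87, 0.84 and 0.81). hsa_circ_18620, the one with the most reads, averaged 3879 ± 625 CPM in OR cells and 7933 ± 25.1 CPM in NCI-H1975 cells (SD, n = 3). These similar circRNAs were picked by correlation over all 21 libraries, OR and NCI-H1975 libraries included. A lower OR level in them partly follows from that choice, so nothing is read from it.

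The numbers up to 19494 belong to the 19494 circRNAs read in pCMV6 replicate 1, the first column of the table, and all 7 were among them. Of the 14 circRNAs numbered directly before or after them, 5 passed the filter on low counts. In 1 of these, hsa_circ_1241, all OR libraries lay below all NCI-H1975 libraries, a relation found for 10.3% of all circRNAs that passed. With 5 neighbours, nothing is read from this count. hsa_circ_1241 had 4, 0 and 2 reads in OR cells, against 28, 29 and 23 in FASN libraries, 28, 3 and 12 in pCMV6 libraries and 34, 42 and 50 in NCI-H1975 libraries. Like hsa_circ_1242 it was read in no PC-9 or GR library, and it had 1 read over the NL20 libraries. The other neighbours that passed did not share the low OR level: hsa_circ_9963, next to hsa_circ_9962, had 648.7 ± 121 CPM in OR and 580.5 ± 164 CPM in NCI-H1975 cells, and hsa_circ_12225, next to hsa_circ_12224, had 140.9 ± 61.4 and 147.0 ± 34.8 CPM. Whether neighbouring numbers come from the same gene is not given in the table.

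**Figure D4:**
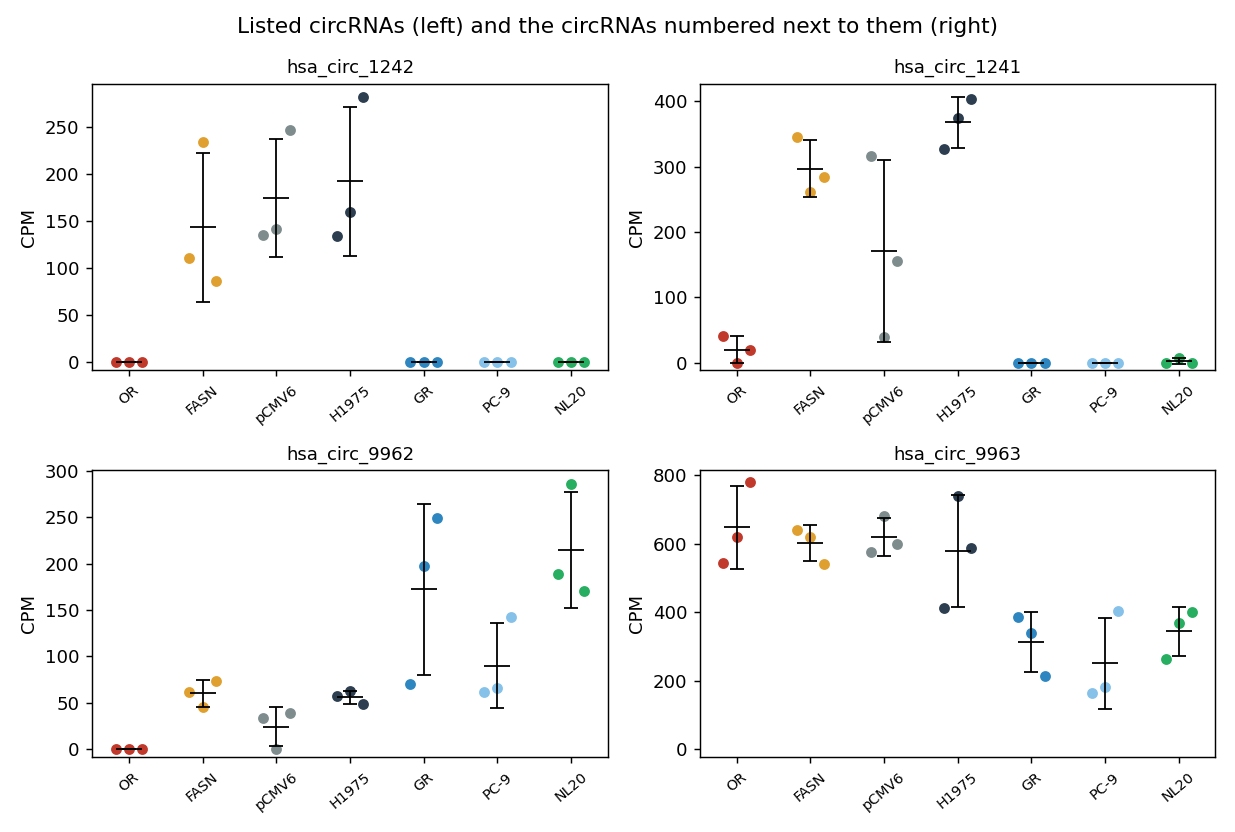
Level in CPM (linear vertical axes) by group of hsa_circ_1242 and hsa_circ_9962 (left) and of the circRNAs numbered next to them, hsa_circ_1241 and hsa_circ_9963 (right), with points for libraries and bars for the mean and SD of 3 libraries. hsa_circ_1241 is near 0 in OR cells and in the other cell lines, as hsa_circ_1242 is at 0, while hsa_circ_9963 lies at 648.7 CPM in OR cells where hsa_circ_9962 has no read.

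Replicate agreement set how finely the levels could be read. For groups with at least 20 reads, the chi-square of a circRNA's counts around its group's rate was taken per degree of freedom. It ran from 0.04 for hsa_circ_17707 in FASN cells to 6.57 for hsa_circ_11521 in NL20 cells. Sampling alone gives 1 on average, but with 3 libraries single values scatter widely around it. In NCI-H1975 cells the value was above 1 for all 6 circRNAs with that many reads, from 1.21 for hsa_circ_18450 to 6.47 for hsa_circ_17707. A value as close to 1 as that of hsa_circ_18450 does not show spread beyond sampling. For hsa_circ_1242 it was 3.71, and hsa_circ_9962 had too few reads for a value. The floors above do not include any spread beyond sampling, nor the sampling error of the group with reads.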

How the data were processed

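Circular RNA was sequenced from 21 libraries, in 7 groups of 3. A kit was used to extract total RNA, per the labels' protocols, and circular RNA was purified and made into libraries by a sequencing company. The deposited table holds raw whole-number read counts per circRNA. The submitters' processing notes name hg38, HISAT2 and DESeq2, without roles; the tool that called circRNAs is not given in the sources used. Each column was matched to a sample by the code in its title.

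Counts were analysed with edgeR 4.0.16 in R 4.3.3. filterByExpr (minimum count 5, minimum total 15) kept 9175 of 124082 circRNAs, with 73.6% to 79.3% of each library's reads. TMM scaling was used, and 1 quasi-likelihood model with a mean per group was fitted to all libraries. Benjamini-Hochberg adjustment ran over all circRNAs tested, with calls under 0.05. An SE is the log2 change divided by the square root of F. Log2 CPM used a prior count of 2. Alternatives were DESeq2 1.42.0, median-of-ratios (RLE) scaling, no filter, a minimum count of 10, the 6 libraries of a comparison alone, a replicate block and each library left out. The code was tested on simulated data. Ratios of OR cells to other groups are of summed reads over summed scaled depth, with a floor of 3 reads over a group without a read. The circRNAs described, the rule for naming others (the most similar circRNA by correlation, and the circRNAs numbered directly before and after) and the tests were chosen with earlier results of these data known.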

Additional observations from a re-analysis of the deposited data

Results flagged for a closer look

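For hsa_circ_18450 and hsa_circ_19001 the libraries went opposite ways in the 2 cancer lines: every OR library lay below every NCI-H1975 library, and every GR library lay above every PC-9 library. Of all circRNAs that passed the filter, 10.3% had the first relation and 7.64% the second. The first was what the circRNAs were chosen by. The difference between the lines was not tested, because both circRNAs were chosen for their low level in OR cells. For hsa_circ_19001, the mean was 402.9 CPM higher in GR than in PC-9 cells, and the OR minus NCI-H1975 difference was -442.7 CPM. For hsa_circ_18450, the mean was 69.8 CPM higher in GR than in PC-9 cells, and the OR minus NCI-H1975 difference was -113.5 CPM. Between GR and PC-9 cells, hsa_circ_19001 passed edgeR's test (adjusted p = 0.000522) and hsa_circ_18450 did not (adjusted p = 0.827). The log2 change of hsa_circ_18450, 0.54 ± 0.56 (SE), was smaller than its error, so a rise in GR cells is not shown for it.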

How the results depend on the processing

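Counts of called circRNAs moved most with the filter. Without it, edgeR called 16 for GR against PC-9, 8 for FASN against pCMV6, 679 for PC-9 against NL20 and 30 lower in OR than in NCI-H1975 cells. DESeq2 called 199 and a fit of the 6 libraries alone 233 for GR against PC-9, and that fit called 65 lower in OR cells. Leaving out 1 library gave between 48 and 72 calls for GR against PC-9 (each of the 6 lowered the count by over 1.5 times), between 14 and 20 for FASN against pCMV6 (each but pCMV6 replicate 2 did), between 1045 and 1173 for PC-9 against NL20, and between 56 and 92 lower in OR cells (each but OR replicate 1 did). No pairing of libraries by replicate number was seen (correlations of deviations from group means from -0.03 to 0.03). Many circRNAs had few reads, which pulls such correlations toward 0, so pairing could be missed. With a replicate block the counts were 111, 24, 1437 and 96, in the order GR against PC-9, FASN against pCMV6, PC-9 against NL20 and lower in OR cells. Among the circRNAs described, sign changes were limited to FASN against pCMV6, in 13 of 83 fits, all for differences that were not called. Without the filter, hsa_circ_19001 stood at 0.038 and hsa_circ_17707 at 0.059 on the log2 scale. With 1 library left out, the log2 change ran from -0.79 to 0.18 for hsa_circ_1242, from -0.047 to 0.53 for hsa_circ_18450, from -0.19 to 0.22 for hsa_circ_19001 and from -0.0062 to 0.12 for hsa_circ_17707; the cause was not tested. hsa_circ_9962 did not pass the filter in the fit of the FASN and pCMV6 libraries alone. Depth limits the less abundant circRNAs: hsa_circ_9962 had 19 reads over the NCI-H1975 group.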
